A study of Homo sapiens with 8 samples.

Results

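The EGFR family of receptors and ligands was followed in HCT116 p53+/+ cells, an established human colon cancer line with wild-type p53, after 24 hours with MANIO at 1 µM or with its solvent DMSO. MANIO is a compound known here only by that code name. The 8 genes are the receptors EGFR, ERBB2 and ERBB3 and the ligands TGFA, AREG, EREG, HBEGF and BTC, taken by their symbols from a table of 58302 genes, in which each had 1 line. RNA was sequenced from 4 MANIO and 4 DMSO cultures, which the labels describe as biological replicates of 1 line at 1 dose and 1 time. All 8 genes passed the filter on low counts.

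The receptors of this family are tyrosine kinases of the cell surface that work in pairs. EGFR binds several ligands, ERBB2 has no known ligand and serves as the favoured partner, and ERBB3 has a weak kinase and signals through its partner. The ligands are made as membrane-anchored precursors, released by proteases of the ADAM group, and drive growth of the intestinal lining through the RAS-ERK and PI3K-AKT pathways. AREG and EREG are the ligands most often studied in colon cancer.

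Among the ligand genes 3 rose and 1 fell, and the receptor genes differed by less than any called ligand. In the MANIO cultures HBEGF rose 1.89-fold, TGFA 1.69-fold and AREG 1.37-fold, and EREG fell to 0.764 of its DMSO level. EGFR rose by 9.88% and ERBB2 fell by 8.92%. ERBB3 and BTC did not pass the test. In all, 4 members rose and 2 fell by edgeR's quasi-likelihood test at an adjusted p under 0.05, where 54.6% of all 15712 tested genes were called, 27.8% higher and 26.8% lower. With so many genes called, the count of 6 of 8 (75%) is given beside that share and no more is read from it. The median log2 fold change, MANIO over DMSO, was 0.15 over the 8 members and 0.0043 over all tested genes.

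The libraries held 29270359 to 32509020 counts in MANIO and 27945196 to 31750628 counts in DMSO (exact two-sided permutation p = 0.171, n = 4 each), and 23694.5 ± 167 detected genes in MANIO against 22792 ± 119 in DMSO (SD; exact permutation p = 0.0286, the smallest that 4 against 4 allows). Of the p53 target genes, CDKN1A lay between 1257 and 1462 CPM in MANIO, against 229 to 284 CPM in DMSO, and MDM2 between 647 and 761 CPM in MANIO, against 194 to 207 CPM in DMSO. CPM are counts per 1000000 counts after TMM scaling, which sets the libraries to a common level. The 7 colon epithelial markers summed to 4135 to 4636 CPM in MANIO and 3350 to 3622 CPM in DMSO. CDH1, KRT8, KRT18 and KRT19 were higher in every MANIO library than in any DMSO library (KRT8 at 1886 to 2259 CPM in MANIO and 1482 to 1708 CPM in DMSO), and EPCAM overlapped, at 258 to 308 CPM in MANIO and 275 to 305 CPM in DMSO. CDX2 overlapped as well, and the brush border gene VIL1 stayed under 1 CPM in every library. The 5 leukocyte markers summed to at most 0.443 CPM in MANIO and 0.223 CPM in DMSO, and the 4 endothelial markers to at most 0.570 CPM in MANIO and 1.31 CPM in DMSO. The 7 fibroblast markers summed to 39.5 to 47.7 CPM in MANIO and 21.6 to 26.5 CPM in DMSO, nearly all of it COL1A1. COL1A2, COL3A1, DCN, THY1 and LUM were under 1 CPM in every library, LUM with no count at all. The part of these marker differences in the values below was not tested. In bulk RNA, fewer cells of a kind and less RNA per cell cannot be told apart.

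**Figure D1:**
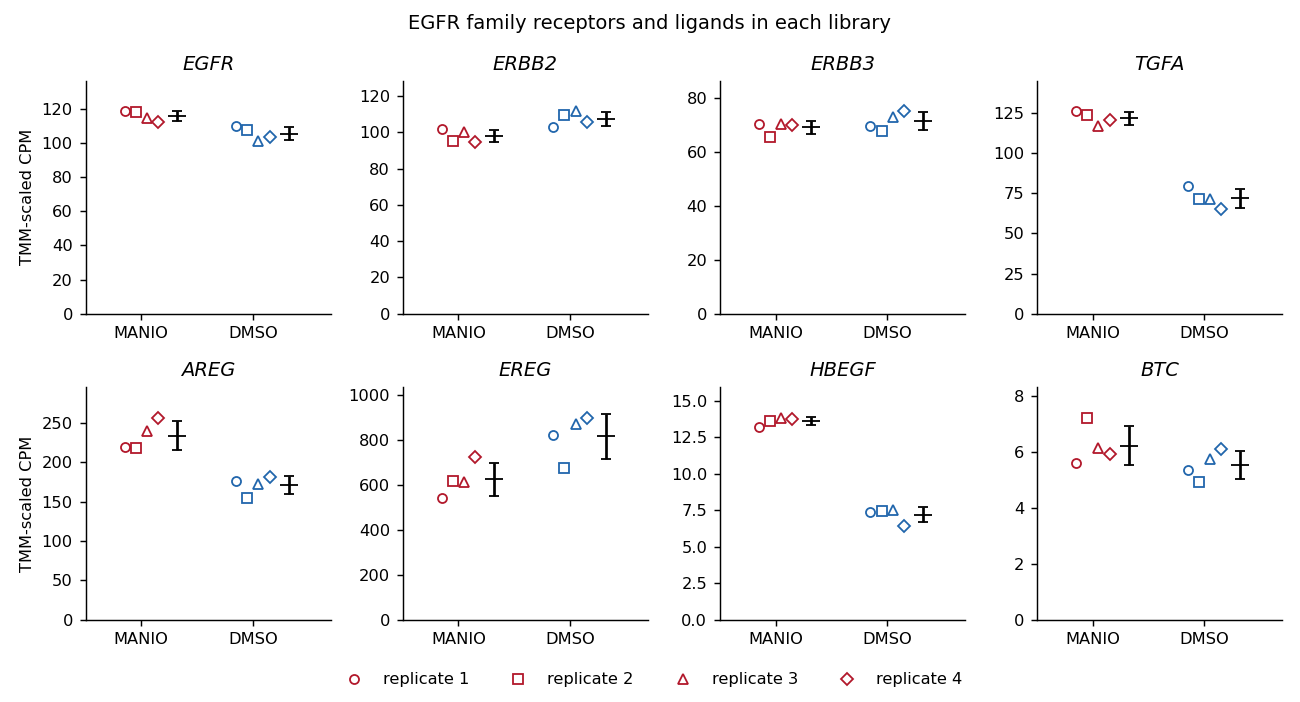
TMM-scaled CPM of the 8 genes in each library, MANIO (red) left of DMSO (blue), each panel with its own axis from 0. Symbols mark the replicate and bars the mean ± SD of 4 libraries; the 4 MANIO libraries lie above the 4 DMSO libraries for TGFA, AREG, HBEGF and EGFR and below them for ERBB2, and the groups overlap for EREG, ERBB3 and BTC.

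HBEGF encodes heparin-binding EGF-like growth factor, a ligand of EGFR and ERBB4 that is tethered to the cell surface until it is shed. The 4 MANIO libraries had 13.2, 13.6, 13.9 and 13.8 CPM, against 7.40, 7.44, 7.51 and 6.43 CPM in DMSO. The groups lay far apart, and the MANIO libraries spread by 0.270 CPM (SD) around a mean of 13.6 CPM, against 0.513 CPM around 7.20 CPM in DMSO. The log2 fold change was 0.92 (SE 0.0761), with an adjusted p of 1.3e-07 in edgeR's quasi-likelihood test. These values rest on 409 to 446 counts per library in MANIO and 181 to 236 in DMSO. On GRCh38 the gene (ENSG00000113070) covers chromosome 5 from 140332843 to 140346631 on the minus strand, a span of 13.8 kb.

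TGFA encodes transforming growth factor alpha, an EGFR ligand often made by the same cells that respond to it. It had 126, 124, 117 and 121 CPM in the MANIO libraries and 79.6, 71.6, 71.6 and 65.2 CPM in the DMSO libraries. Each MANIO library was thus above each DMSO library by far more than the libraries of a group differed. The log2 fold change was 0.76 (SE 0.0609), and edgeR's quasi-likelihood test gave an adjusted p of 9.3e-08. TGFA (ENSG00000163235) spans 107 kb of chromosome 2, from 70447280 to 70554193 on the minus strand.

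AREG encodes amphiregulin, a ligand of EGFR alone. It was at 219, 219, 239 and 257 CPM in MANIO, against 176, 155, 172 and 181 CPM in DMSO. The groups did not overlap, and the log2 fold change was 0.45 (SE 0.0647; edgeR adjusted p = 3.4e-05). EREG encodes epiregulin, which binds EGFR and ERBB4, and was the member with the most counts, 17146 to 27413 per library. It was at 543, 620, 615 and 724 CPM in MANIO, against 823, 676, 872 and 901 CPM in DMSO. EREG fell, but its groups overlapped: DMSO replicate 2, the lowest of its group, lay below MANIO replicate 4, the highest of its group. The log2 fold change was -0.39 (SE 0.0957) and edgeR's adjusted p was 0.0039. Without DMSO replicate 2 it was -0.47, and without MANIO replicate 4 it was -0.46. Against a 1.2-fold limit, tested with edgeR's glmTreat, the call of EREG was lost (adjusted p = 0.11).

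The ratio of the pair separated the groups more clearly than EREG did. EREG counts were 2.48, 2.83, 2.57 and 2.82 times those of AREG in the MANIO libraries, and 4.67, 4.37, 5.06 and 4.98 times in the DMSO libraries. The highest MANIO ratio was thus well below the lowest DMSO ratio. MANIO replicate 4 had the highest value of both genes in its group, DMSO replicate 4 likewise in its own, and DMSO replicate 2 the lowest of both. The ratio is a description and carries no test.

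These genes are neighbours. On GRCh38 chromosome 4, EREG (ENSG00000124882) lies at 74365143 to 74388751 and AREG (ENSG00000109321) at 74445134 to 74455009, both on the plus strand with 56.4 kb between them. BTC (ENSG00000174808) follows 290 kb further on, at 74744759 to 74794686 on the minus strand, and EPGN, the gene of the ligand epigen, lies 49.8 kb before EREG. EPGN had 1 to 4 counts per library and was not tested. Of the protein-coding genes beside the cluster, MTHFD2L had a log2 fold change of -0.33 (SE 0.144; edgeR adjusted p = 0.066) and PARM1 one of 0.14 (SE 0.0666; edgeR adjusted p = 0.079), so neither passed. AREG and EREG were thus the members of this stretch that were called, and they were called in opposite directions.

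The stretches before the starts of AREG and EREG are shown because these neighbours moved in opposite directions, and that of HBEGF because it had the largest rise. They come from RefSeq on GRCh38.p14 and end at the base before the first annotated start of GENCODE 29. AREG is chr4:74444886-74445133 on the plus strand, EREG is chr4:74364895-74365142 on the plus strand and HBEGF is chr5:140346632-140346853 on the minus strand. Capitals mark motifs searched on both strands. The TATA box was spelled as the letters TATAAA, the cAMP response element as TGACGTCA, the AP-1 site as TGANTCA and the GC box as the letters GGGCGG.
AREG: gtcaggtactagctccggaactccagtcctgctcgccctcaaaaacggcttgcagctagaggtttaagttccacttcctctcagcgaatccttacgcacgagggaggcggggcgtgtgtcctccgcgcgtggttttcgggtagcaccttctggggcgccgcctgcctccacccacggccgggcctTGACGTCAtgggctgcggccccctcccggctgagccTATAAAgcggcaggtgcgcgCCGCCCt
EREG: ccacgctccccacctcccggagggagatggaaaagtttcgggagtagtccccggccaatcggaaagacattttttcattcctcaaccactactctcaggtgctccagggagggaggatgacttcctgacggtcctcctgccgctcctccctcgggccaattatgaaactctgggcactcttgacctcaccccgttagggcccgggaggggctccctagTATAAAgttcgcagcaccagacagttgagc
HBEGF: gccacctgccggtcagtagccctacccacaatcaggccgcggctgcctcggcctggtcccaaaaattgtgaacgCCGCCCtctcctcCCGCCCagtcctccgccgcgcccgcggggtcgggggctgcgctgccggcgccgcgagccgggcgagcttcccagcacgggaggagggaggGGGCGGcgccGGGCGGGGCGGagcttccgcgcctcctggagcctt

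AREG and EREG both held a TATA box, whose first base lay 29 and 32 bases before the RefSeq start, where 10.7% of all 35116 RefSeq windows of 250 bases before a start held one. AREG also held a cAMP response element 65 bases before its start, a motif in 1.65% of all windows, and a GC box 9 bases before it. HBEGF held 5 GC boxes, 2 of which share a base, and no TATA box, and 42.6% of all windows held a GC box. These motifs were not limited to these genes. The first window of EGFR held 2 GC boxes and its second 2 TATA boxes, and the first window of TGFA held 3 GC boxes. The second window of EGFR and both windows of TGFA lie after another annotated start of the same gene, inside a longer transcript. None of the 9 windows of 7 members, ERBB3 not among them, held the p53 binding motif of 10 bases, which 5.57% of all windows held. The AP-1 motif was in the window of ERBB2 and in the second window of EGFR, against 6.57% of all windows. A match of letters is a description and not a site of binding, and a window without one says nothing of the factor.

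BTC encodes betacellulin, a ligand of EGFR and ERBB4. It was at 5.61, 7.22, 6.14 and 5.92 CPM in MANIO and at 5.36, 4.93, 5.73 and 6.11 CPM in DMSO, with 141 to 237 counts per library. The groups overlapped, and its log2 fold change was 0.17 with an SE of 0.104 (edgeR adjusted p = 0.18).

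**Figure D2:**
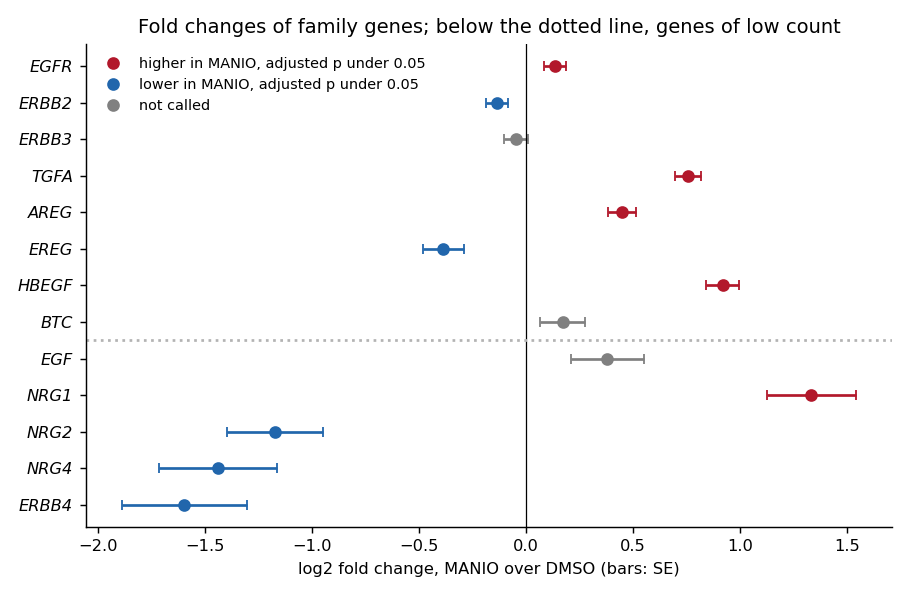
Log2 fold change, MANIO over DMSO, with its SE, for the 8 members and for the 5 tested family genes of low count below the dotted line. Red and blue points passed edgeR's test at an adjusted p under 0.05; HBEGF lies at 0.92, TGFA at 0.76 and EREG at -0.39, while the receptors EGFR, ERBB2 and ERBB3 lie between -0.13 and 0.14.

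Among the receptors, EGFR had 119, 118, 115 and 112 CPM in MANIO, against 110, 108, 101 and 103 CPM in DMSO. ERBB2 had 102, 95.4, 100.5 and 94.6 CPM in MANIO and 103, 109.9, 112 and 106 CPM in DMSO. ERBB3 had 70.3, 65.5, 70.3 and 70.01 CPM in MANIO and 69.7, 67.6, 73.03 and 74.95 CPM in DMSO. The groups of EGFR and ERBB2 did not overlap but lay close together, and those of ERBB3 overlapped.

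EGFR had a log2 fold change of 0.14 (SE 0.0498; edgeR adjusted p = 0.031), ERBB2 one of -0.13 (SE 0.0510; edgeR adjusted p = 0.036) and ERBB3 one of -0.05 (SE 0.0539; edgeR adjusted p = 0.49). The calls of EGFR and ERBB2 were each lost in 4 of 8 edgeR fits that left out 1 library, in the fit with no filter on low counts and in the test against a 1.2-fold limit. EGFR's call was lost without MANIO replicate 1 (adjusted p = 0.075) or 2 (0.082) and without DMSO replicate 3 (0.10) or 4 (0.081), all by edgeR, and ERBB2's without MANIO replicate 2 (0.11) or 4 (0.076) and without DMSO replicate 2 (0.080) or 3 (0.10). EGFR (ENSG00000146648) covers 193 kb of chromosome 7, from 55019021 to 55211628, ERBB2 (ENSG00000141736) 42.5 kb of chromosome 17, from 39687914 to 39730426, and ERBB3 (ENSG00000065361) 26.7 kb of chromosome 12, from 56076799 to 56103505, all on the plus strand. Of the exonic bases of ERBB2, 7.41% also lie in exons of MIEN1 or PGAP3 on the other strand. For the other members this share was at most 1.49%, and for the 5 ligands it was 0. The library kit does not mark strand, and how reads on such bases were counted is not known here.

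Across the 8 genes, 4 members had all MANIO libraries above all DMSO libraries and 1 had them below, where 48.3% of all tested genes had groups that did not overlap (24.7% MANIO higher, 23.7% MANIO lower).

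To compare the genes with each other, levels were divided by the length of their merged exons. In MANIO, AREG led with 142 ± 11.03 CPM per kilobase (SD, n = 4), followed by EREG with 109 ± 13.0, while in DMSO EREG led with 143 ± 17.5 and AREG followed with 104 ± 6.90. In each group the ranges of AREG and EREG did not overlap, and the leading gene differed between the groups. By this length TGFA came next in both groups, with 24.5 ± 0.798 CPM per kilobase in MANIO and 14.5 ± 1.19 in DMSO.

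The receptors were lower and close together per kilobase of merged exons: ERBB2 at 9.50 ± 0.344 in MANIO and 10.4 ± 0.369 in DMSO, EGFR at 9.26 ± 0.242 in MANIO and 8.43 ± 0.311 in DMSO, and ERBB3 at 7.64 ± 0.261 in MANIO and 7.89 ± 0.365 in DMSO. ERBB2 and EGFR overlapped in MANIO but not in DMSO, and EGFR and ERBB3 overlapped in DMSO but not in MANIO. By the length of the longest coding transcript instead, a measure added after seeing the data, ERBB2 stood at 20.5 in MANIO and 22.5 in DMSO, and ERBB3 at 11.7 in MANIO and 12.05 in DMSO, so the receptor levels depend on the length used. By that length ERBB2 stood above TGFA in DMSO, where TGFA was at 16.7, and below it in MANIO, where TGFA was at 28.3. HBEGF had 4.51 ± 0.0895 CPM per kilobase in MANIO and 2.38 ± 0.170 in DMSO, and BTC 2.21 ± 0.249 in MANIO and 1.96 ± 0.180 in DMSO. HBEGF was clear of BTC in MANIO and overlapped it in DMSO.

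**Figure D3:**
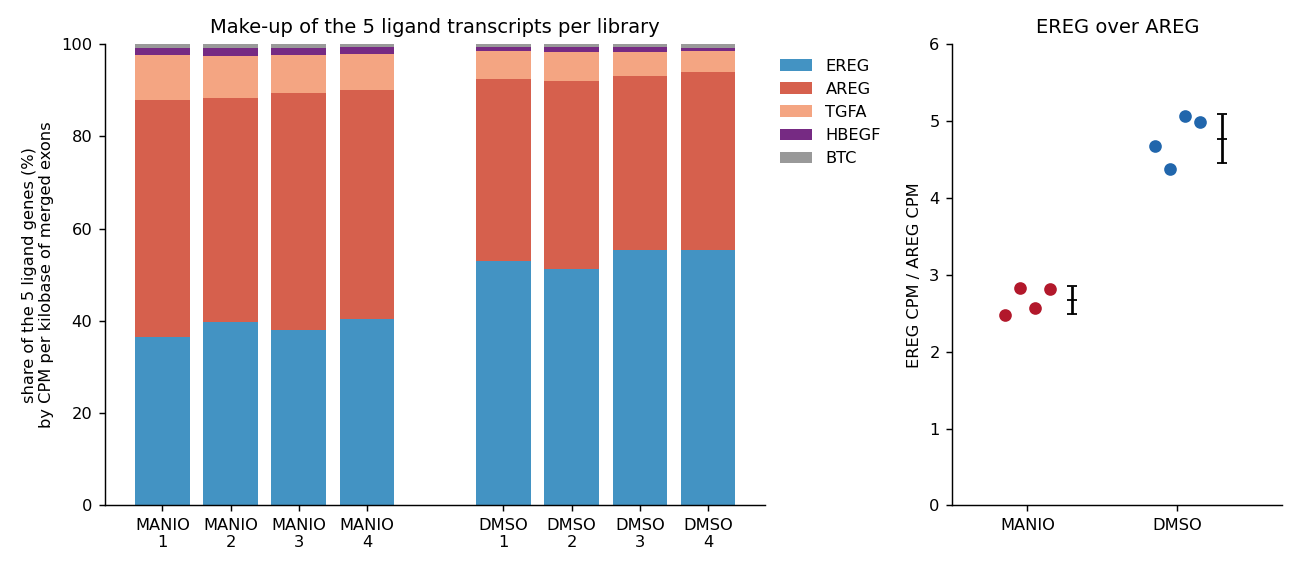
Left, the share of each ligand gene in the sum of the 5 ligand genes by CPM per kilobase of merged exons, 1 bar per library, MANIO left of DMSO. Right, EREG CPM divided by AREG CPM in each library with the mean ± SD; the ratio lies between 2.48 and 2.83 in MANIO and between 4.37 and 5.06 in DMSO.

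The make-up of the ligand transcripts differed between the groups while the ranges of their sum overlapped. By CPM per kilobase, AREG made up 50.2 ± 1.298% of the 5 ligand genes in MANIO and 39.1 ± 1.21% in DMSO, and EREG 38.7 ± 1.73% in MANIO and 53.7 ± 1.96% in DMSO (SD, n = 4 each). TGFA made up 8.74 ± 0.888% in MANIO and 5.50 ± 0.726% in DMSO, and HBEGF 1.60 ± 0.103% in MANIO and 0.905 ± 0.131% in DMSO. In each of these 4 shares the groups did not overlap. The share of BTC overlapped, at 0.671% to 0.940% in MANIO and 0.701% to 0.762% in DMSO. The shares are parts of the same sum, so they do not vary independently. The sum of the 5 ligands was 282 ± 22.7 CPM per kilobase in MANIO and 266 ± 23.9 in DMSO, and the sum of the 3 receptors was 26.4 ± 0.596 in MANIO and 26.7 ± 0.205 in DMSO, with overlapping ranges for both sums. These sums and shares are descriptions, with no test.

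The rest of the family was near the limit of detection. ERBB4, the remaining receptor, had 7 to 11 counts per library in MANIO and 17 to 33 in DMSO, a log2 fold change of -1.60 (SE 0.290; edgeR adjusted p = 0.00028). Among the neuregulins, of which NRG1 and NRG2 bind ERBB3 and ERBB4 and the others ERBB4, NRG1 had 33 to 43 counts in MANIO and 11 to 16 in DMSO (1.33, SE 0.207; edgeR adjusted p = 6.8e-05). NRG2 had 12 to 17 counts in MANIO and 24 to 35 in DMSO (-1.17), and NRG4 8 to 17 in MANIO and 17 to 36 in DMSO (-1.44), with edgeR adjusted p of 0.00041 and 0.00043. The groups of NRG4 met in counts but not in CPM, and 38.1% of its exonic bases also lie in exons of FBXO22, so its count is uncertain. ERBB4 and NRG4 passed the filter on low counts through their DMSO libraries, a selection that favours a fall. Their calls are given with that limit.

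EGF itself had 43 to 65 counts in MANIO and 35 to 40 in DMSO and missed the threshold (0.38, SE 0.169; edgeR adjusted p = 0.069). NRG3 had no count in any library, which at 3 counts allows up to 0.0915 to 0.101 CPM in the MANIO libraries and 0.0955 to 0.112 CPM in the DMSO libraries. Of the 7 further family genes, 5 were thus tested, of which 1 rose, 3 fell and 1 was not called. Of all tested genes 54.6% were called, 27.8% higher and 26.8% lower. The median log2 fold change of the 5 was -1.17, against 0.0043 over all tested genes. ERBB4 and NRG4, which the filter favoured for a fall, are among the 3, so no more is read from this balance. ERBB4 and NRG1, which span 1163 kb and 1129 kb, moved in opposite directions, and the part of span in these values was not tested.

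The genes around the receptors are described by list, to be read beside the 54.6% of all tested genes that were called (27.8% higher, 26.8% lower), and a bare value in brackets after a gene is its log2 fold change, MANIO over DMSO. Of 9 tested genes for shedding of the ligands (11 listed), 3 rose and 2 fell, with a median log2 fold change of 0.05. The 3 that rose were the genes of the iRhom complex that carries and steadies the protease ADAM17: FRMD8 had 68.7 CPM in MANIO and 39.0 CPM in DMSO (0.82, SE 0.0787), RHBDF1 had 21.5 CPM in MANIO and 13.1 CPM in DMSO (0.71, SE 0.0837), and RHBDF2 had 55.8 CPM in MANIO and 39.2 CPM in DMSO (0.51, SE 0.0774). ADAM10, the protease of EGF and BTC precursors, fell by 0.29 on the log2 scale to 142 CPM in MANIO, against 173 CPM in DMSO. ADAM17 itself, named after its value was seen, had 89.4 CPM in MANIO and 85.9 CPM in DMSO and did not pass (edgeR adjusted p = 0.43). The edgeR adjusted p of the other 4 genes ran from 5.9e-07 to 0.0034.

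Of 16 genes listed as receptor adaptors, among them exchange factor genes and a transcription factor gene, 5 rose and 3 fell. Their median log2 fold change was -0.02. SHC1, an adaptor that links receptors to RAS, had 323 CPM in MANIO and 192 CPM in DMSO (0.75, SE 0.0514), with 15.2% of its exonic bases shared with other genes. The transcription factor gene STAT3 (0.58), the ERBB2 adaptor gene GRB7 (0.42), which lies near ERBB2 on chromosome 17, and the exchange factor gene SOS2 (0.36) rose as well, with edgeR adjusted p of at most 0.0007. Neighbouring GRB7 and ERBB2 were thus called in opposite directions, but the call of ERBB2 was lost in 4 of 8 fits that left out 1 library.

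Of 13 genes of the RAS-ERK cascade, 3 rose and 4 fell, with a median log2 fold change of -0.07. The scaffold gene KSR1 (0.72) and NF1 (0.43), a RAS inhibitor gene, rose, while MAPK3 (-0.36), the gene of the kinase ERK1, and RASA1 (-0.34), a second RAS inhibitor gene, fell. Of 10 tested genes of the PI3K-AKT arm (11 listed), 3 rose and 2 fell, with a median of 0.06. The subunit genes PIK3R3 (0.77) and PIK3CD (0.30) rose, and PIK3CB (-0.38) fell. For these 7 genes edgeR's adjusted p was at most 0.001.

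Of 22 genes that restrain the receptors or take them into the cell, 7 rose and 8 fell, with a median log2 fold change of -0.05. SOCS4, which promotes loss of EGFR, had 94.4 CPM in MANIO and 59.0 CPM in DMSO (0.68, SE 0.0742). The endocytic adaptor gene SH3KBP1 (-0.40), the phosphatase gene PTPRK (-0.43) and the ubiquitin ligase gene CBLB (-0.70) fell, and span 354, 552 and 214 kb. ERRFI1 and LRIG1, inhibitors of EGFR that were named after their values were seen, fell too, ERRFI1 to 640 CPM in MANIO, against 822 CPM in DMSO (-0.36), and LRIG1 to 5.59 CPM in MANIO, against 8.10 CPM in DMSO (-0.54). All 6 had an edgeR adjusted p of at most 0.00024. They do not give the balance of the list, in which 7 genes rose and 8 fell. CBLC (0.35), PTPN1 (0.21) and CBL (0.17), also named after their values were seen, rose (edgeR adjusted p of at most 0.019).

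Of 10 genes used as a readout of ERK output, 2 rose and 6 fell, with a median log2 fold change of -0.22. The cyclin D1 gene CCND1 had 861 CPM in MANIO and 511 CPM in DMSO (0.75) and the receptor gene EPHA2 269 CPM in MANIO and 166 CPM in DMSO (0.70). The feedback inhibitor gene SPRY4 fell to 102 CPM in MANIO, against 151 CPM in DMSO (-0.56), and PHLDA1 to 385 CPM in MANIO, against 564 CPM in DMSO (-0.55). Of 18 tested genes of other growth factor receptors (20 listed), 8 rose and 6 fell, with a median of 0.08, among them EPHA2, MERTK (0.71), AXL (0.55) and EPHB2 (-0.45). By edgeR, the adjusted p of these 7 genes was at most 4.4e-05. EPHA2 is on both lists. Of the genes named from the lists, CCND1, LRIG1, ADAM17, RASA1, PHLDA1 and PIK3R3 share 10.3% to 17.4% of their exonic bases with other genes, so their counts are less certain.

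**Figure D4:**
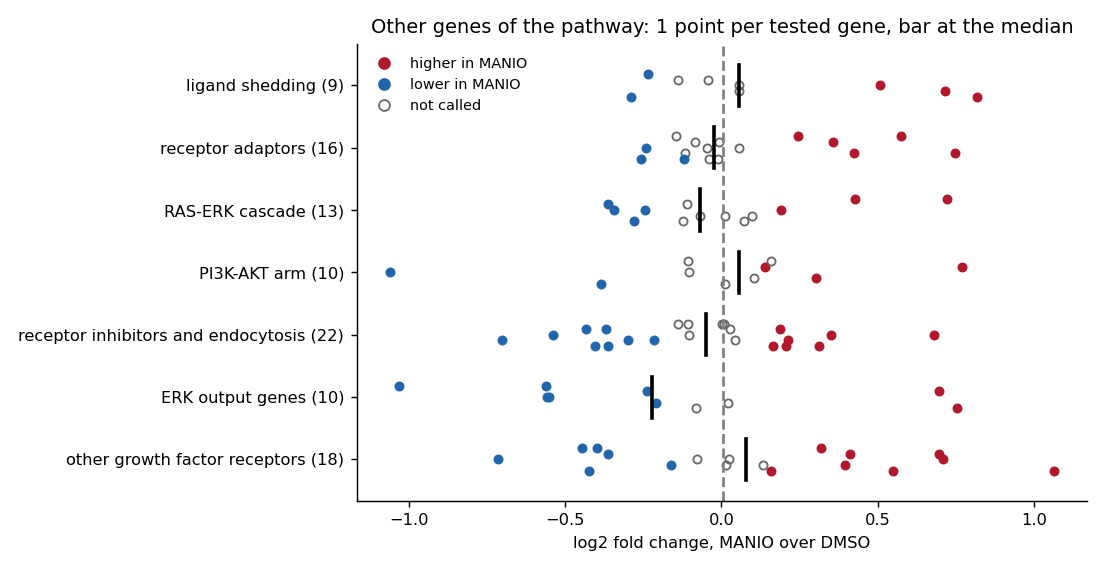
Log2 fold change, MANIO over DMSO, of the tested genes of 7 pathway lists, 1 point per gene, with the number tested in brackets and a black bar at the list's median. Red and blue points passed edgeR's test and open points did not; the dashed line is the median of all 15712 tested genes, 0.0043, and the medians of the lists lie between -0.22 and 0.08.

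The genes whose values followed those of a member most closely were sought among 12098 genes with a symbol and an average log2 CPM of at least 1, by the root mean square difference of centred log2 CPM over the 8 libraries. For HBEGF they were TNFRSF10B (0.0488), NTPCR (0.0637) and CCDC84 (0.0669), and for TGFA they were PROCR (0.0405), RETSAT (0.0511) and TRIAP1 (0.0553). For AREG they were CPE (0.0325), MYSM1 (0.0403) and SREK1 (0.0427), and for EREG they were MOB4 (0.0368), G2E3 (0.0434) and AP1S3 (0.0516). EGFR was followed most closely by PPIP5K1 (0.0217), EIF2AK4 (0.0240) and TRIM25 (0.0256), and ERBB2 by GNL1 (0.0177), ADD1 (0.0181) and LSM14B (0.0197). Few genes lay within 0.1 of HBEGF (31) and TGFA (63), against 128 for EREG, 315 for AREG, 1891 for EGFR and 2011 for ERBB2. The measure includes the difference between the groups, so the nearest genes have fold changes like the member's. These counts thus depend on the size of a member's fold change, and no more is read from them.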

How the data were processed

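RNA of 8 cultures was made into TruSeq RNA version 2 libraries, a kit that does not mark strand, and sequenced on a HiSeq, per the labels' protocols. The authors deposited raw read counts per Ensembl gene, 1 column per library, as the whole-number values show. The library totals exceed the raw reads per sample that the labels state, for a reason not known here. Named in the submitters' processing notes, with no role, are STAR 2.5.3a, HTSeq, DESeq2, FastQC 1.3 and the build GRCh38. Neither the annotation release nor the strand setting is given in the sources used here.

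Counts were analysed with edgeR 4.0.16 in R 4.3.3: filterByExpr, TMM scaling, and a robust quasi-likelihood F test of group alone, with Benjamini-Hochberg adjustment over 15712 genes and a threshold of 0.05. The SE comes from the F statistic. DESeq2 1.42.0 was an alternative. The procedure was tested on simulated data. Positions and exon lengths are those of GENCODE 29 on GRCh38, promoter sequences those of RefSeq on GRCh38.p14. Levels per kilobase divide CPM by merged exon length, and the transcripts in use are not known.

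The members and lists were chosen with earlier results of these data known. Genes named are all members and further family genes, up to 4 called genes of smallest adjusted p per list, the 3 nearest genes per called member, and CDKN1A and MDM2. Exceptions are marked, and 1 gene that the rule names is not reported here.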

Additional observations from a re-analysis of the deposited data

Results flagged for a closer look

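Within groups of 4 libraries, the highest or lowest was checked for its gap to the others by Dixon's test in 36 groups of values. Chance marks about 5% of such groups, and 4 were marked. The groups of NRG3, which had no count in any library, were among the 36 but could not be marked. ERBB3 was at 65.5 CPM in MANIO replicate 2, against 70.01 to 70.3 CPM in the other MANIO libraries. HBEGF was at 6.43 CPM in DMSO replicate 4, against 7.40 to 7.51 CPM in the other DMSO libraries, and its log2 fold change without that library was 0.87, the lowest of the 8 fits that left out 1 library, against 0.92 with it. NRG1 was at 1.31 CPM in MANIO replicate 2, against 1.11 to 1.14 CPM in the other MANIO libraries. The mitochondrial share of counts was 7.48% in DMSO replicate 1, against 4.82% to 5.21% in the other DMSO libraries and 6.70% to 7.62% in MANIO. Without DMSO replicate 1, 6 of the 8 family members were called, as with it.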

How the results depend on the processing

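Over 15 alternatives, TGFA, AREG and HBEGF were called higher in all and ERBB3 and BTC in none. Leaving out 1 library in turn gave log2 fold changes of 0.71 to 0.81 for TGFA, 0.40 to 0.48 for AREG, 0.87 to 0.94 for HBEGF, -0.47 to -0.33 for EREG, 0.11 to 0.15 for EGFR and -0.16 to -0.12 for ERBB2, with 4 to 6 members called. With no filter on low counts, the calls of EGFR (0.12, edgeR adjusted p = 0.15) and ERBB2 (-0.15, adjusted p = 0.054) were lost. Against a 1.2-fold limit, edgeR's glmTreat called 4132 genes, 55.7% of them higher, instead of 8574, 50.9% of them higher. It called 3 members, and EGFR (0.14), ERBB2 (-0.13) and EREG (-0.39) were not among them. It called 3 genes of ligand shedding, 3 of the adaptor list, 2 of the RAS-ERK cascade, 3 of the PI3K-AKT arm, 5 inhibitors and 9 other receptors. EGF was called without MANIO replicate 1 (0.48, edgeR adjusted p = 0.027).

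Replicate numbers were shared by the groups, and whether they mark pairs is not settled by these values. Correlations were taken between MANIO and DMSO libraries, over all tested genes, on the deviations of log2 CPM from the gene's group mean. Same-numbered libraries had correlations of 0.038, 0.163, 0.118 and 0.096, all positive but small. Those of different numbers ran from -0.314 to 0.29. The deviations cancel within a group, so these correlations are not independent and are no test of pairing. With the number as a replicate block, 8845 genes and 6 members were called.

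Levels per kilobase depend on the length used. With the longest coding transcript, chosen after seeing the data, CPM per kilobase in MANIO were 20.5 for ERBB2, 11.8 for EGFR, 11.7 for ERBB3, 28.3 for TGFA, 188 for AREG, 135 for EREG and 5.71 for HBEGF. In DMSO they were 22.5 for ERBB2, 10.7 for EGFR, 12.05 for ERBB3, 16.7 for TGFA, 138 for AREG, 177 for EREG and 3.02 for HBEGF. AREG still led in MANIO and EREG in DMSO, and EREG over AREG was 0.718 in MANIO and 1.28 in DMSO. In DMSO, ERBB2 then stood above TGFA and ERBB3 above EGFR. ERBB4 and the neuregulins rest on few counts, and 1 line, dose and time were studied.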
